A study of Saccharum hybrid cultivar with 12 samples.

Results

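Among the unigenes that the study of these sugarcane stalks describes as transcription factors, 9 had less RNA in the high-sugar genotype than in a moderate-sugar and a low-sugar genotype. They are c86855_g1, c83546_g1, c98618_g1, c94993_g1, c101324_g3, c97708_g1, c102624_g1, c103585_g1 and c104225_g1, out of 163054 unigenes in the deposited tables. By the definition of the study a unigene is 1 assembled transcript that stands for a gene, since the reads were assembled without a genome. The length implied by the deposited values was not fixed for every unigene, as described below. The members were taken from the text of the study and selected on their counts, which were lower in the high-sugar genotype than in the others, so that difference is described below without a test. The rule on counts did not use the response of the members to ethephon, which was tested. The study, however, gave these unigenes as differing between genotypes under either treatment, and listed other transcription factors by their change with ethylene. The ethephon tests are therefore not fully free of how the study sorted its lists. The levels of other unigenes assembled beside the members were tested too.

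Transcription factors are proteins that bind DNA at particular sequences and raise or lower the transcription of other genes. The WRKY family, large in plants, is named for a conserved stretch of amino acids in its DNA-binding domain and is best known for roles in defence, stress and senescence. Ethephon breaks down inside plant tissue and releases ethylene, a hormone that acts through a chain of transcription factors and is used on sugarcane as a ripener. In the text of the study c97708_g1 is annotated as a WRKY protein. The other 8 were described there only as a group, with terms for protein catabolism, sequence-specific DNA binding and the WRKY domain, so no family is given for any of them here. The tables pair no unigene with a gene name, so neither the description as transcription factors nor the labelled tissue could be checked against markers.

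The high-sugar genotype (HS) is the commercial variety ROC22, with a sucrose content of 15.0%, the moderate-sugar genotype (MS) is YT71-210, with 12.6%, and the low-sugar genotype (LS) is GT86-887, with 6.0%. Field-grown hybrid sugarcane of each genotype received a foliar spray, either an ethylene solution of 400 mg/L made from ethephon (T) or water (CK). Developing stalk tissue from 20 cm above the node of a young expanded leaf was taken at day 7, which gave the groups HS_T, HS_CK, MS_T, MS_CK, LS_T and LS_CK with 2 biological replicates each. Each genotype is a single clone, so a difference between HS, MS and LS is one between 3 clones and cannot be told apart from any other trait in which they differ. Libraries held between 19765594 and 28747056 counts, no member was without a count in any library, and all 9 passed the filter on low counts, as did 54433 unigenes in all. Levels are given as CPM, counts relative to the scaled library size, which compare libraries within a unigene. Where unigenes are compared with each other the deposited FPKM, which also divides by length, is used. In these pieces of stalk, fewer cells that express a gene and less RNA per cell cannot be told apart.

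In all 9 unigenes every HS library lay below every MS and every LS library. This is the pattern by which they were chosen, and 8.73% of the tested unigenes have it. Over the 9, the level in MS was a median of 3.94 times that in HS after ethephon and 3.73 times under water. The level in LS was a median of 3.47 times that in HS after ethephon and 4.60 times under water. The gap was wide in 5 unigenes, in which the HS mean was 6.91% to 25.9% of the MS and LS means, and narrower in 4, in which it was 34.3% to 47.8% of them.

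**Figure D1:**
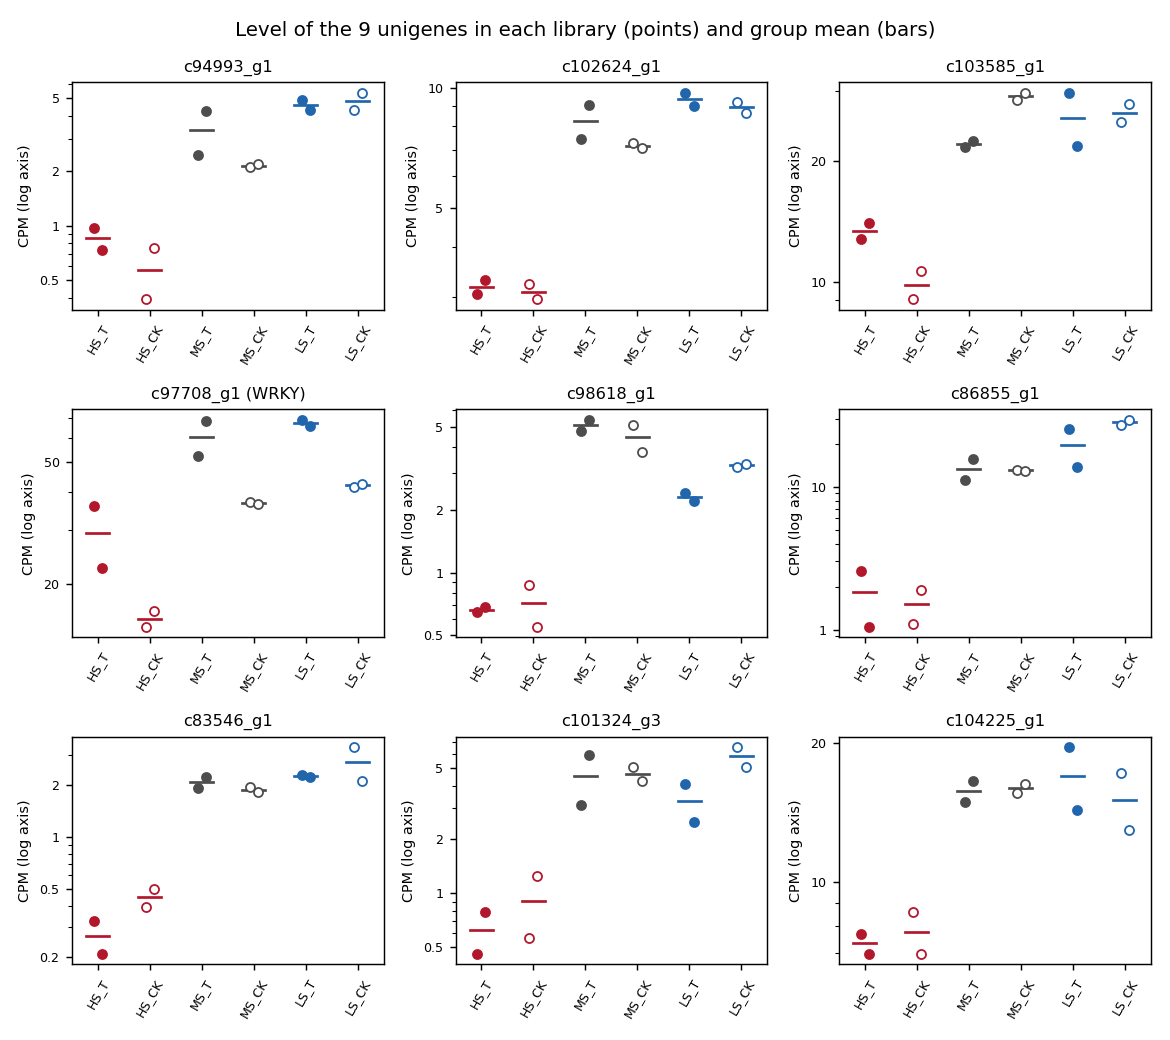
Level in CPM on a log axis, with each point 1 library (filled after ethephon, open under water) and each bar the mean of a group of 2. The HS libraries stand under the MS and LS libraries in each panel, by the smallest margin in c97708_g1 (36.0 CPM in HS_T replicate 1 against 36.5 CPM in MS_CK replicate 2).

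The widest gap was that of c86855_g1, whose family is not given. It had 2.58 and 1.05 CPM in HS_T and 1.09 and 1.91 CPM in HS_CK. The MS libraries held 11.1 and 15.6 CPM in MS_T and 13.0 and 13.0 CPM in MS_CK, and the LS libraries held 25.4 and 13.7 CPM in LS_T and 27.3 and 29.5 CPM in LS_CK. The lowest library of MS or LS was thus 4.30 times the highest of HS. The mean in HS was 12.6% of that in MS and 6.91% of that in LS. The fold of LS over HS was 10.8 after ethephon and 18.9 under water. The value after ethephon moved with each library left out. It was 18.7 without HS_T replicate 1, the higher of its pair, and 7.57 without HS_T replicate 2. Without LS_T replicate 1 it was 7.53, and without LS_T replicate 2 it was 14.0. The fold of MS over HS after ethephon, 7.34, was 12.7 without HS_T replicate 1 and 5.16 without HS_T replicate 2.

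The next widest gap was that of c83546_g1, the unigene with the fewest counts. In HS it had 7 and 4 counts in HS_T and 9 and 10 in HS_CK, or 0.323, 0.210, 0.393 and 0.502 CPM. In MS it had 1.92 and 2.25 CPM in MS_T and 1.95 and 1.83 CPM in MS_CK. In LS it had 2.29 and 2.25 CPM in LS_T and 3.34 and 2.11 CPM in LS_CK. All 8 MS and LS libraries were between 1.83 and 3.34 CPM, while no HS library exceeded 0.502 CPM. With so few counts in HS the folds are loosely set.

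In c98618_g1 the order of the other genotypes in CPM was turned round, with MS above LS. It had 0.646 and 0.682 CPM in HS_T and 0.873 and 0.552 CPM in HS_CK. The MS values were 4.79 and 5.40 CPM in MS_T and 5.11 and 3.80 CPM in MS_CK, and the LS values were 2.41 and 2.20 CPM in LS_T and 3.22 and 3.33 CPM in LS_CK. The mean in HS was therefore 14.4% of that in MS and 24.7% of that in LS, and no libraries of the 3 genotypes overlapped in CPM. In FPKM the MS libraries, at 3.17 to 5.04, overlapped with the LS libraries, at 4.28 to 7.37.

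In c94993_g1 the 3 genotypes were also apart, in the order HS, MS and LS. It had 0.969 and 0.734 CPM in HS_T and 0.393 and 0.752 CPM in HS_CK. There were 2.44 and 4.28 CPM in MS_T and 2.09 and 2.17 CPM in MS_CK, and 4.90 and 4.29 CPM in LS_T and 4.30 and 5.37 CPM in LS_CK. The highest MS library, at 4.28 CPM, was just under the lowest LS library, at 4.29 CPM. Levels in HS were 25.9% of those in MS and 15.1% of those in LS.

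The last unigene with a wide gap was c101324_g3. It had 0.462 and 0.787 CPM in HS_T and 0.567 and 1.25 CPM in HS_CK, against 3.10 and 5.92 CPM in MS_T and 5.06 and 4.25 CPM in MS_CK. In LS it had 4.05 and 2.50 CPM in LS_T and 6.56 and 5.08 CPM in LS_CK. The MS and LS libraries overlapped, and the MS mean was 1.01 times the LS mean. Without HS_CK replicate 2, the higher of its pair, the fold of MS over HS under water was 8.2 in place of 5.11, and that of LS over HS was 10.3 in place of 6.39. Without HS_CK replicate 1 these folds were 3.71 for MS and 4.64 for LS.

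The other 4 unigenes were those with the most counts in HS, and in these HS kept between 34.3% and 47.8% of the level of the other genotypes. The WRKY unigene c97708_g1 had 36.0 and 22.6 CPM in HS_T and 14.4 and 16.3 CPM in HS_CK. It had 52.5 and 68.0 CPM in MS_T and 37.0 and 36.5 CPM in MS_CK, and 68.9 and 65.9 CPM in LS_T and 41.6 and 42.4 CPM in LS_CK. Within a spray HS was well apart from MS and LS, while MS_T and LS_T overlapped. HS_T replicate 1 all but met the MS_CK libraries, the lowest of which was 1.01 times as high. Its margin was thus narrow only across sprays.

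The level of c102624_g1 was even within each genotype. It had 3.05 and 3.30 CPM in HS_T and 3.23 and 2.96 CPM in HS_CK, 7.46 and 9.07 CPM in MS_T and 7.25 and 7.06 CPM in MS_CK, and 9.71 and 8.99 CPM in LS_T and 9.23 and 8.66 CPM in LS_CK. The lowest MS library was 2.14 times the highest HS library, and HS held 40.7% of the mean in MS and 34.3% of that in LS.

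For c103585_g1 the values were 12.8 and 14.0 CPM in HS_T and 9.04 and 10.6 CPM in HS_CK. It had 21.6 and 22.4 CPM in MS_T and 28.5 and 29.6 CPM in MS_CK, and 29.5 and 21.8 CPM in LS_T and 25.0 and 27.7 CPM in LS_CK. The fold of MS over HS was smaller after ethephon (1.65) than under water (2.95), with HS_T above HS_CK and MS_T below MS_CK.

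The smallest mean gap was that of c104225_g1. It had 7.71 and 6.98 CPM in HS_T and 8.60 and 6.97 CPM in HS_CK, 14.9 and 16.6 CPM in MS_T and 15.6 and 16.3 CPM in MS_CK, and 19.6 and 14.3 CPM in LS_T and 17.2 and 12.9 CPM in LS_CK. HS held 47.8% of the mean in MS and 47.2% of that in LS, and MS and LS were not apart.

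The order of MS and LS varied from unigene to unigene and is given as a description too, since the study sorted its transcription factors by genotype. Under water MS_CK lay below LS_CK without overlap in 6 of the 9 (38% of all tested unigenes) and above it in 2 (32.5%), with 1 overlap. After ethephon MS_T lay below LS_T in 1 (31.5%) and above it in 1 (30.7%), and 7 overlapped. By counts the largest differences were in c94993_g1, with a log2 ratio of MS over LS of -0.44 after ethephon and -1.18 under water, in c86855_g1, with -0.55 and -1.12 in that order, and in c98618_g1, with 1.14 and 0.44. In FPKM, however, the mean of c98618_g1 over the MS libraries was 0.714 times that over the LS libraries.

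Per length, the WRKY unigene c97708_g1 was the most abundant of the 9 in each genotype. It averaged 15.7 FPKM in HS, 38.3 FPKM in MS and 45.6 FPKM in LS. Among unigenes with a count its median percentile was 84.4 in HS, 93.8 in MS and 95.2 in LS. The least abundant in HS was c83546_g1, with 0.368 FPKM in HS, 2.66 FPKM in MS and 1.35 FPKM in LS, and its median percentile was 24.1 in HS, 64.8 in MS and 50.2 in LS. The 9 thus cover a wide range of abundance.

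FPKM gave the same side of HS for each unigene but not the same size for all. For c98618_g1 the fold of LS over HS was 8.58 in FPKM against 3.47 in CPM after ethephon, and 11.8 against 4.60 under water. For c83546_g1 it was 4.32 in FPKM against 8.51 in CPM after ethephon, and 3.22 against 6.10 under water, while that of MS over HS under water was 6.43 against 4.22. For c101324_g3 the fold of MS over HS was 13.9 against 7.22 after ethephon and 8.35 against 5.11 under water. In c98618_g1 and c83546_g1 even the order of MS and LS was turned, since MS over LS was 1.71 in CPM and 0.714 in FPKM for c98618_g1 and 0.796 in CPM and 1.98 in FPKM for c83546_g1.

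Since FPKM is the count divided by length and library size, both deposited values together give the length that was used for a unigene in each library. For c98618_g1 this implied length was 1109 to 1209 bases in the HS libraries and 1145 to 1186 bases in MS, but 469 to 531 bases in LS. The median in HS was 2.23 times that in LS, and that in MS was 2.27 times that in LS. For c83546_g1 it was 480 to 1623 bases in HS, 548 to 1306 bases in MS and 1742 to 2413 bases in LS. So the length attached to these unigenes was not one fixed number, and in LS it did not overlap with that in HS or MS for either.

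**Figure D2:**
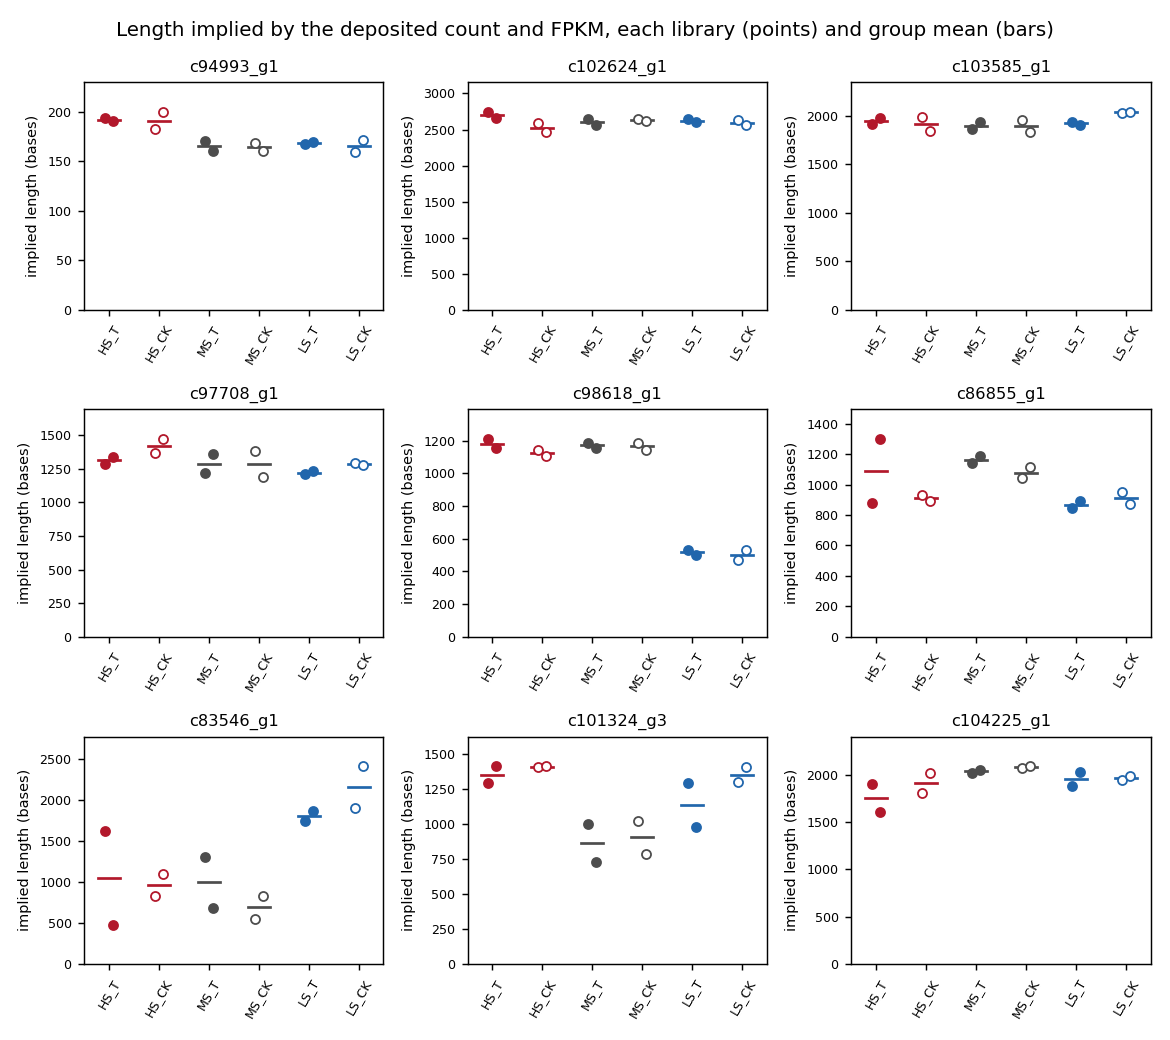
Length in bases implied by the count and the FPKM of each of the 9 unigenes, with each point 1 library and each bar the mean of a group of 2. The LS libraries of c98618_g1 lie at 469 to 531 bases against 1109 to 1209 bases in HS, while the libraries of c102624_g1 and c103585_g1 stay within 1.11-fold of each other.

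Among 39964 unigenes with enough counts in all libraries the highest implied length was a median of 1.12 times the lowest, and 1.99 times at the 90th percentile. HS and LS lay at least 2-fold apart without overlap for 0.963% of them, among the members for c98618_g1. MS and LS did so for 0.991%, among the members for c98618_g1 and c83546_g1, and HS and MS for 0.856%, among them no member. The spread was 1.94-fold for c101324_g3, with 1296 to 1413 bases in HS, 730 to 1026 bases in MS and 977 to 1409 bases in LS. For the remaining 6 it was between 1.11-fold and 1.54-fold. How the length was taken for these files is not stated, and its part in the levels was not tested.

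Whether ethephon changed the 9 unigenes was tested with edgeR's quasi-likelihood test over all tested unigenes. A unigene was called when its Benjamini-Hochberg adjusted p was under 0.005 and its fold change over 2, the limits of the study. In HS 0 of the 9 were called, against 0.011% of all tested unigenes. With the HS libraries alone 8 of the 9 would pass the filter on low counts, and c83546_g1 passed through MS and LS, having 4 to 10 counts in an HS library. In MS 0 were called, against 0.00184%, and in LS 0 were called, against 2.24%. For the mean of the 3 effects, which uses 6 ethephon and 6 water libraries, 0 were called, against 0.974%. At an unadjusted p under 0.05 the numbers were 2 in HS (4.02% of all tested), 2 in MS (12.3%), 1 in LS (24.5%) and 1 for the mean effect (19%), and DESeq2's Wald test at the same limits also called 0 in each. With 2 libraries against 2 an exact permutation test cannot go below p = 0.333, so these p-values rest on the spread shared across groups and unigenes.

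The WRKY unigene c97708_g1 had the lowest adjusted p of the 9 in each genotype and for the mean effect. Both HS_T libraries, at 36.0 and 22.6 CPM, exceeded the HS_CK libraries at 14.4 and 16.3 CPM. In MS and LS the ethephon libraries likewise exceeded the water libraries without overlap, a pattern that 2.7% of tested unigenes show in all 3 genotypes. Its log2 fold change was 0.93 in HS (standard error 0.21, adjusted p = 0.374), 0.71 in MS (0.20, adjusted p = 0.161) and 0.68 in LS (0.20, adjusted p = 0.0577), by edgeR with Benjamini-Hochberg adjustment. With these settings it passed in no genotype alone. EdgeR without the filter on low counts gave adjusted p of 0.000465 in HS, 0.00388 in MS and 0.0018 in LS, and in LS edgeR gave 0.0173 on the LS libraries alone and 0.0438 with DESeq2's size factors. DESeq2's Wald test gave adjusted p of 0.00191 in HS, 0.00814 in MS and 0.00272 in LS, and the fold change was under 2 in each of these fits, so it was not called there either.

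For the mean of the 3 genotypes the log2 fold change of c97708_g1 was 0.78 (standard error 0.12, 95% interval 0.52 to 1.03), or 1.71-fold higher after ethephon, with an adjusted p of 0.00362 by edgeR's quasi-likelihood test. This is under the limit on p, as for 1.41% of tested unigenes, but under the 2-fold limit as well, so it is not a call. With an adjusted p under 0.05 as the sole limit, c97708_g1 was the 1 member of 9 to pass, where 5.79% of all tested unigenes pass and 3.91% pass and are higher after ethephon. With this limit 0 members passed in HS (0.0349% of all tested), in MS (0.553%) and in LS (9.55%), and 0 for the differences HS minus MS (0%), HS minus LS (1.01%) and MS minus LS (1.97%). Over 19 alternative settings, 1 of which changes only the limits, the value stayed between 0.68 and 0.88 with an adjusted p under 0.05 in each, and under 0.005 in 7. The highest adjusted p, 0.0166, came without MS_CK replicate 1. In HS alone the size rests on HS_T replicate 1, without which the log2 fold change was 0.56.

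The effect on c97708_g1 did not differ detectably between genotypes. The difference in log2 fold change was 0.22 for HS minus MS (95% interval -0.41 to 0.85), 0.25 for HS minus LS (-0.38 to 0.88) and 0.03 for MS minus LS (-0.59 to 0.65), with adjusted p of 0.986, 0.832 and 1 in edgeR's test of the difference. The intervals are wide enough to hold an effect in HS that is above or below that in the others. The level of this unigene in MS was 2.06 times that in HS after ethephon and 2.40 times under water.

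**Figure D3:**
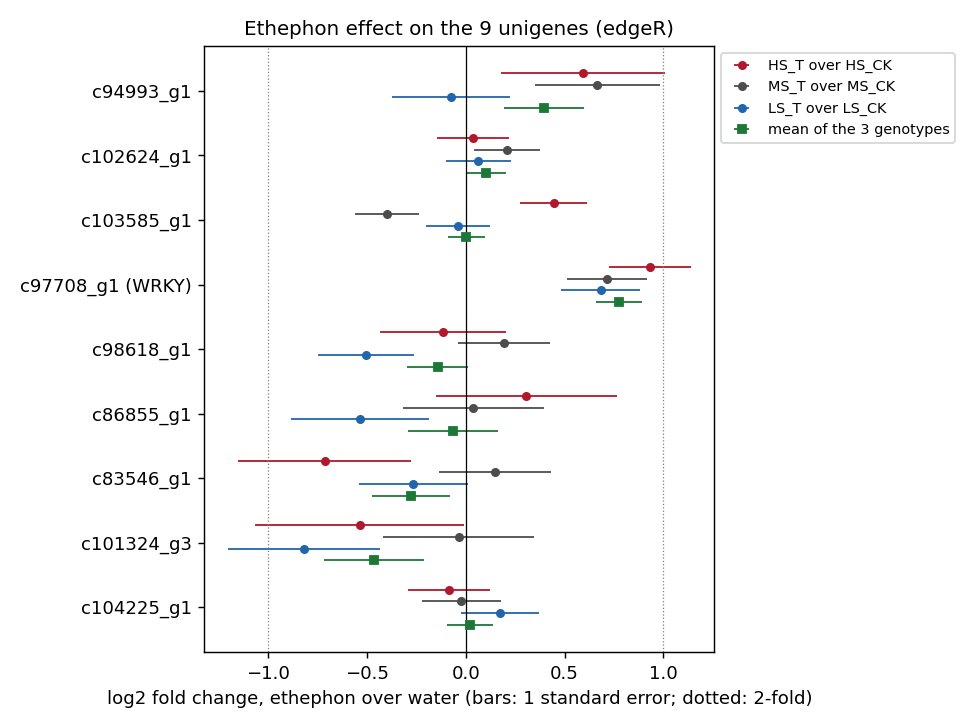
Log2 fold change of ethephon over water for each of the 9 unigenes in HS, MS and LS and for the mean of the 3 genotypes, from edgeR's quasi-likelihood fit, with bars of 1 standard error and dotted lines at a 2-fold change. The values of c97708_g1 lie between 0.68 and 0.93, and its mean effect is 0.78 with a standard error of 0.12.

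The other 8 unigenes gave small or uneven values. Their mean effects over the 3 genotypes ran from a log2 fold change of -0.46 in c101324_g3 to 0.40 in c94993_g1, and none passed an adjusted p of 0.05 in edgeR's test. For c101324_g3 the interval of the mean effect was -1.02 to 0.09, and the LS value was -0.82 (standard error 0.39, adjusted p = 0.222). In LS its ethephon libraries, at 4.05 and 2.50 CPM, lay below the water libraries at 6.56 and 5.08 CPM. The same was true in LS of c98618_g1, with a log2 fold change of -0.51 (adjusted p = 0.230 by edgeR), and of c86855_g1, with -0.53 (adjusted p = 0.386 by edgeR). In LS 33.3% of all tested unigenes have ethephon libraries below the water libraries without overlap, so 3 of 9 is near the background.

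For c94993_g1 the log2 fold change was 0.59 in HS, 0.67 in MS and -0.07 in LS. The MS_T libraries, at 2.44 and 4.28 CPM, lay above the MS_CK libraries at 2.09 and 2.17 CPM, as for 21.5% of tested unigenes, and its adjusted p in MS was 0.432 by edgeR's test. The unigene c102624_g1 also had its MS_T libraries above its MS_CK libraries, by a log2 fold change of 0.21, and was near 0 in HS (0.03) and LS (0.06). For c83546_g1 the HS_T libraries lay below those of HS_CK without overlap, as for 14.1% of tested unigenes, with a log2 fold change of -0.71 whose interval, -1.67 to 0.25, rests on 4 to 10 counts a library. The unigene c104225_g1 overlapped between sprays in each genotype, with values of -0.09 in HS, -0.02 in MS and 0.18 in LS.

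In c103585_g1 the HS and MS effects had opposite signs. The HS_T libraries, at 12.8 and 14.0 CPM, lay above the HS_CK libraries at 9.04 and 10.6 CPM, while the MS_T libraries, at 21.6 and 22.4 CPM, lay below the MS_CK libraries at 28.5 and 29.6 CPM. Taken singly, 14.3% of tested unigenes have HS_T above HS_CK without overlap and 20.4% have MS_T below MS_CK. The log2 fold change was 0.45 in HS (standard error 0.17) and -0.40 in MS (0.16), and the difference of HS minus MS was 0.84 (95% interval 0.33 to 1.36). Its unadjusted p was 0.00434 by edgeR's test, and its adjusted p was 0.655, so it did not pass over all tested unigenes, of which 2.09% show this pattern. Of the 9 members 0 were called for the difference of HS minus MS (0% of all tested), for that of HS minus LS (0.0386%) and for that of MS minus LS (0.351%). At an unadjusted p under 0.05 they numbered 1 for HS minus MS (5.84% of all tested), 0 for HS minus LS (11.7%) and 0 for MS minus LS (13.6%), and the Wald test of DESeq2 called 0 in each.

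As a group the 9 did not lean to one side after ethephon. Their median log2 fold change was 0.03 in HS, 0.15 in MS, -0.07 in LS and 0.00 for the mean effect, where the medians of all tested unigenes were 0, 0, -0.08 and -0.03. The 19 other transcription factor unigenes in the text of the study passed the filter too. Of these edgeR called 0 in HS (0.011% of all tested), 0 in MS (0.00184%), 0 in LS (2.24%) and 1 for the mean effect (0.974%). That was c101169_g3, which the text of the study also names a cellulose synthase, lower after ethephon with a log2 fold change of -1.16 (standard error 0.17, adjusted p = 0.0033 by edgeR's quasi-likelihood test). With an adjusted p under 0.05 as the sole limit, 0 of the 19 passed in HS (0.0349%), 2 in MS (0.553%), 3 in LS (9.55%) and 3 for the mean effect (5.79%). The study listed some of the 19 by their change with ethylene, so they and the 9 were not chosen alike.

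Trinity, the program that assembled the reads, numbers unigenes within a component, and those of 1 component share sequence and may be forms or near copies of 1 gene between which reads can be divided. Of the 9 unigenes c102624_g1, c103585_g1 and c104225_g1 were alone in their components, and the other 6 had 9 further unigenes beside them, of which 4 passed the filter. These 4 were not themselves chosen for their level in HS, and HS was compared with MS and LS in them by edgeR's quasi-likelihood test. Since reads can be divided within a component, their levels are not independent of those of the members. In HS_T vs MS_T 0 of the 4 were called (5.59% of all tested unigenes were called lower in HS), in HS_CK vs MS_CK 0 (4.59%), in HS_T vs LS_T 0 (8.16%) and in HS_CK vs LS_CK 1, lower in HS (8.94%). In either direction the shares called among all tested were 11.9%, 10.2%, 14.5% and 15.3%. With an adjusted p under 0.05 as the sole limit the numbers were 1, 1, 1 and 2, and DESeq2 at the main limits gave the same. No share over all tested unigenes was taken for these settings, so these numbers have no background and are not read as a result.

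The unigene called was c101324_g2, beside c101324_g3. It had 0.600 and 0.472 CPM in HS_T and 0.480 and 1.30 CPM in HS_CK, 2.02 and 3.47 CPM in MS_T and 3.26 and 2.96 CPM in MS_CK, and 3.65 and 1.38 CPM in LS_T and 5.76 and 5.12 CPM in LS_CK. Its HS libraries were below all MS and LS libraries, as in the member, although the margin to LS_T replicate 2 was slight. The log2 fold change was -2.62 in HS_CK vs LS_CK (standard error 0.50, adjusted p = 0.00249 by edgeR), and the call was lost without HS_CK replicate 1, LS_CK replicate 1 or LS_CK replicate 2, with adjusted p of 0.0219, 0.014 and 0.00988. In the other comparisons it was -2.35 in HS_T vs MS_T (adjusted p = 0.00823), -1.82 in HS_CK vs MS_CK (adjusted p = 0.0234) and -2.23 in HS_T vs LS_T (adjusted p = 0.00974), below the limit of the looser setting and not of the stricter one. The sum over the component, in which c101324_g1 is a further unigene with too few counts to test (4 in HS, 15 in MS and 10 in LS), was in HS 0.166 times that in MS and 0.211 times that in LS after ethephon, and 0.230 times MS and 0.160 times LS under water.

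The component of c94993_g1 gave another picture. The unigene c94993_g2 had 101 and 85.4 CPM in HS_T and 87.2 and 104 CPM in HS_CK, 92.4 and 81.8 CPM in MS_T and 83.4 and 77.0 CPM in MS_CK, and 86.1 and 96.7 CPM in LS_T and 80.3 and 84.4 CPM in LS_CK. It was not called in any of the 4 comparisons, with log2 fold changes of HS from 0.03 to 0.25 and adjusted p from 0.236 to 0.909 by edgeR. Its mean FPKM was 23.9 times that of c94993_g1 in HS, 4.59 times in MS and 2.86 times in LS. The implied length of c94993_g1 was 159 to 200 bases. That is below the shortest unigene length that the study gives, so it is not the full length of an assembled sequence. The sum of counts over this component is c94993_g2 almost alone, so it tells little of the level of c94993_g1. Whether reads were divided between these unigenes was not tested.

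**Figure D4:**
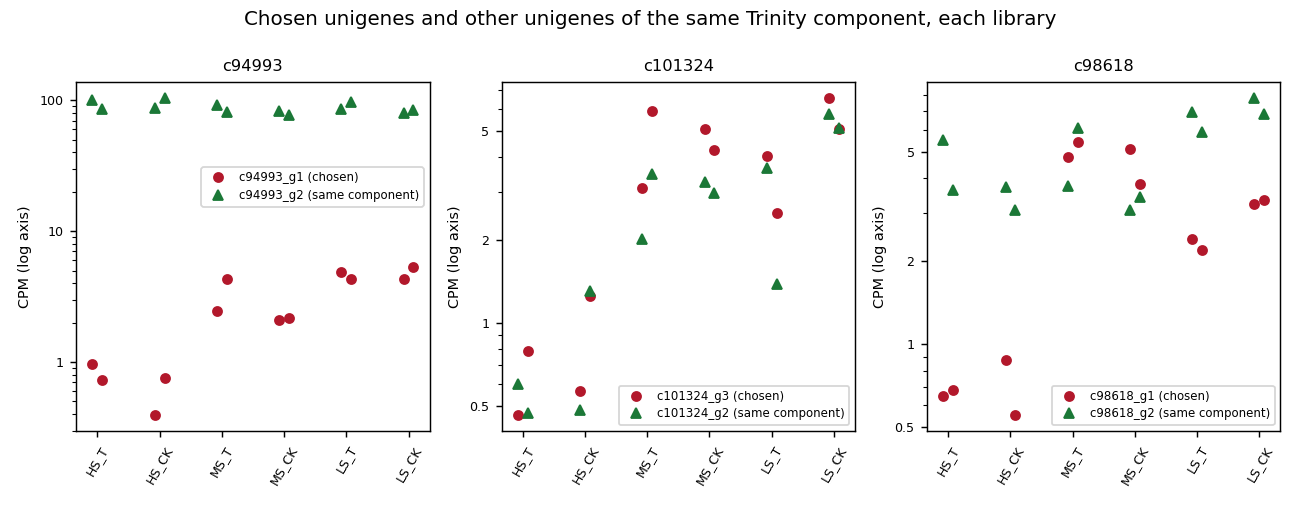
Level in CPM on a log axis in each library of 3 of the unigenes (circles) and of another unigene of the same assembly component (triangles). The triangles of c94993_g2 lie between 77.0 and 104 CPM in all genotypes, while those of c101324_g2 are at 0.472 to 1.30 CPM in HS and at 1.38 to 5.76 CPM in MS and LS.

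Beside c98618_g1 stood c98618_g2, with 5.49 and 3.62 CPM in HS_T and 3.71 and 3.06 CPM in HS_CK, 3.75 and 6.11 CPM in MS_T and 3.07 and 3.41 CPM in MS_CK, and 6.98 and 5.87 CPM in LS_T and 7.81 and 6.87 CPM in LS_CK. Its HS and MS libraries overlapped under both sprays, with log2 fold changes of HS over MS of -0.12 after ethephon (adjusted p = 0.783 by edgeR) and 0.07 under water (adjusted p = 0.911). In HS_CK vs LS_CK the log2 fold change was -1.11 (standard error 0.27, adjusted p = 0.00946 by edgeR), which passes the looser limit only. The component sum in HS was 0.521 times that in MS and 0.598 times that in LS after ethephon, and 0.533 and 0.386 times under water, and c98618_g2 makes up most of this sum in HS. The fourth, c86855_g3, had 39 counts in HS, 10 in MS and 23 in LS and was not called. Its log2 fold changes of HS ran from 0.53 to 2.22, with adjusted p from 0.235 to 0.758 by edgeR. Its mean FPKM, on these few counts, was 3.61 times that of c86855_g1 in HS, 0.125 times in MS and 0.121 times in LS. The component sum in HS was 0.164 times that in MS and 0.111 times that in LS after ethephon, and 0.156 and 0.0715 times under water. Beside the WRKY unigene, c97708_g2 had 1 count in HS, 0 in MS and 31 in LS, too few to test.

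Over the 12 libraries the log2 CPM of the 9 followed each other, with Pearson's r from 0.67 to 0.96 over 36 pairs and a median of 0.89. The gap between HS and the other genotypes, by which they were chosen, is part of each of these values. After the mean of each group was taken out, r ran from -0.37 to 0.86, with a median of 0.26. Within groups, LS_T replicate 1 was above replicate 2 in 9 of the 9, as in 54.8% of all tested unigenes, and MS_T replicate 2 was above replicate 1 in 9 of the 9, as in 49.2%. In the other groups the replicates were mixed.

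Other unigenes matched the profile of the 9 closely. By Pearson's r with their mean standardised profile over the 12 libraries, the nearest were c76966_g5 (0.995), c98727_g1 (0.994) and c104275_g3 (0.994), to which the text of the study gives no name. The unigene c98727_g1 averaged 0.630 CPM in HS, 13.7 CPM in MS and 18.1 CPM in LS, and the other two had no count in any HS library. Of the 47 unigenes that the text names with an annotation the nearest were methyltransferases c67261_g2 (0.984) and c85289_g1 (0.977), enzymes that move methyl groups, and the pectinesterase c83266_g1 (0.974), an enzyme that removes methyl groups from cell wall pectin. The pectinesterase averaged 17.5 CPM in HS, 46.0 CPM in MS and 61.0 CPM in LS, and c85289_g1 averaged 0.853 CPM in HS, 5.67 CPM in MS and 5.86 CPM in LS. These values describe likeness over 12 libraries that share genotypes and sprays, and have no test.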

How the data were processed

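RNA of developing stalk was sequenced in 12 libraries of 6 groups, and genotype, spray and replicate were taken from the sample labels. The authors removed adapters and low-quality reads, assembled the reads of all genotypes with Trinity, took the longest assembled transcript per subcomponent as its unigene, and aligned reads with RSEM to give the deposited expected counts per unigene, which carry no scaling between libraries. The deposited FPKM values divide by a length and by library size, and the length they imply was not the same in every library for some unigenes. Tool versions and how length was taken are not given in the sources used here. Technical replicates were merged before deposit.

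Expected counts were rounded and analysed in R 4.3.3 with edgeR 4.0.16 (filterByExpr with a minimum count of 10, TMM factors of 0.919 to 1.09, glmQLFit and glmQLFTest on all 12 libraries with 1 coefficient per group and 6 residual degrees of freedom). P-values were adjusted by Benjamini-Hochberg over 54433 unigenes. CPM used TMM library sizes. Implied length is count divided by FPKM and library total, brought to a common scale over libraries, for unigenes with an FPKM of at least 0.1 and at least 3 counts in every library. It was added after seeing the data. Figures used Python 3.11.15 and matplotlib 3.10.9. The fit was tested on simulated data first.

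The members and lists were chosen with earlier results of these data known. Named are all 9 members, tested unigenes of their components that were called in a comparison with HS, the 3 most alike of all unigenes and of those the study annotates, and other transcription factor unigenes called for ethephon. The remaining tested component unigenes, and c97708_g2, were named after their values were seen. Library totals of 19765594 to 28747056 counts set the precision of low counts, and p-values measure the spread between replicates, whose plants or plots the labels do not name.

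Alternatives were DESeq2 1.42.0 (size factors in edgeR, and the Wald test), limma 3.58.1 on log2(FPKM + 1) and log2(FPKM + 0.1), no filter beyond 1 count, a looser limit, only the libraries compared, a replicate block, each library left out, FPKM for levels and counts summed per component. Sequences were not analysed here.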

Additional observations from a re-analysis of the deposited data

Results flagged for a closer look

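The effect of ethephon on c103585_g1 differed between HS and MS by 0.84 on the log2 scale (standard error 0.24, unadjusted p = 0.00434 by edgeR's test of the difference). All HS_T libraries were above the HS_CK libraries, and all MS_T libraries were below the MS_CK libraries. The adjusted p over all tested unigenes was 0.655, so the difference failed the correction.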

How the results depend on the processing

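Some results moved with the limits and tests. With an adjusted p under 0.05 as the sole limit, 1 member (c97708_g1) passed for the mean ethephon effect. Of the other unigenes in the members' components, 1 was called in HS_T vs MS_T, 1 in HS_CK vs MS_CK, 1 in HS_T vs LS_T and 2 in HS_CK vs LS_CK under each of 3 settings: that looser limit, no filter beyond 1 count, and DESeq2's Wald test. The share of all unigenes called in these comparisons was not taken under these settings, so the numbers have no background. With 1 library left out the number ran from 0 to 1 in HS_CK vs LS_CK (0 without HS_CK replicate 1, LS_CK replicate 1 or LS_CK replicate 2) and from 0 to 1 in HS_T vs LS_T (1 without LS_T replicate 2). The spread of a group left with 1 library was taken from the other groups. Counts summed over the component of c94993_g1, which are those of c94993_g2 almost alone, gave log2 ratios of HS over MS of 0.056 after ethephon and 0.22 under water, and of HS over LS of 0.14 under water. Division of reads between these unigenes was not tested, and neither was the cause of the other changes. Of 926 alternative values of the members' ethephon effects 86 had the other sign, in values that were not called, and of 190 for the component unigenes 12 did. Of 252 alternative values of the members' HS ratios 48 moved by more than the spread between replicates, 29 of them with 1 library left out, and 3, those of c94993_g1, changed sign. All 81 alternative implied length ratios kept their side.

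Replicate numbers were not taken to pair the samples, since not every pair of groups correlated above 0.1. The difference between replicates 1 and 2 correlated at 0.24 between HS_T and HS_CK, -0.11 between MS_T and MS_CK and -0.02 between LS_T and LS_CK. Over all 15 pairs of groups it ran from -0.17 to 0.38, the highest between HS_CK and MS_CK. With a replicate block 0 members were called in each ethephon comparison, and 1 component unigene in HS_CK vs LS_CK, as without it, while the calls over all unigenes became 26 in MS in place of 1. Under the block the mean effect of c97708_g1 was 0.78. Depth limits c83546_g1 most, with 4 to 10 counts in an HS library.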
